A study of Mus musculus with 12 samples.

Results

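The 35 genes described here encode molecular chaperones: the cytosolic heat shock proteins of the Hsp70, Hsp110 and Hsp90 families with their co-chaperones, the chaperones of the endoplasmic reticulum (ER) and of the mitochondrion, the subunits of the chaperonin CCT, the co-chaperone complex prefoldin, and the transcription factor Hsf1. They were chosen by name, with earlier results of these data known. The shares set below beside those of all genes therefore describe the set and are not an independent test. Ensembl mouse identifiers of the count table were matched to gene symbols, and rows with a single identifier were kept. All 35 were found among 45669 rows. They fell into 5 cytosolic Hsp70 and Hsp110 genes, 2 cytosolic Hsp90 genes, 8 cytosolic and nuclear co-chaperones, 4 ER genes, 3 mitochondrial genes, 8 CCT subunits, 4 prefoldin subunits and Hsf1.

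The cells were CD4+ T cells of lymph nodes, taken from C57BL6 mice aged 12 weeks by depletion of the other cells with magnetic beads. The mice were either wild type on both copies of Rasgrp1 (WT) or homozygous for Rasgrp1Anaef (Anaef), a point-mutant allele. Rasgrp1 encodes an exchange factor that activates Ras below the T cell receptor. Total RNA was sequenced in 4 WT libraries (1 to 4) and 4 Anaef libraries (5 to 8), and ribosome-protected fragments (RPF), which mark where ribosomes sat on an mRNA, in 4 pools of 2 samples each, of which 1B and 2B were WT while 3B and 4B were Anaef.

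Chaperones bind unfolded chains and release them in cycles driven by ATP. Hsp70 proteins are loaded by J-domain proteins and emptied by nucleotide exchange factors, Hsp90 acts later on kinases and receptors, and CCT, a ring of 8 different subunits, folds actin and tubulin that prefoldin hands over. In T cells the ER chaperones serve receptors and secreted proteins, and Hsf1 drives the cytosolic genes after heat or proteotoxic stress.

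The libraries held 15326842 to 40046317 counts in total RNA and 2868943 to 7009342 in RPF. The 35 genes took 0.406 to 0.646% of the total RNA counts and 1.43 to 2.01% of the RPF counts. Levels are given as CPM, read counts scaled by the TMM-adjusted library size, set separately for the 8 total RNA and the 4 RPF libraries. The summed CPM of 7 CD4 T cell markers was 2606 to 4578 in total RNA and 6050 to 6868 in RPF. Plasma cell markers, mostly immunoglobulin transcripts, were present in every library and lower in every Anaef library than in every WT library, with summed total RNA CPM of 1408 to 8399.7 in WT and 449.8 to 947 in Anaef. In RPF the sum was 51183 in WT 1B, 14994 in WT 2B, 10479 in Anaef 3B and 3353 in Anaef 4B. B cell markers summed to 36.6 to 67.7 total RNA CPM in WT and 15.5 to 39.0 in Anaef, and in RPF, where Cd22 was at 0, to 84.2 and 44.7 in WT and 20.4 and 35.9 in Anaef. Myeloid and dendritic markers summed to 27.1 to 31.0 total RNA CPM in WT and 16.4 to 21.9 in Anaef, and in RPF to 47.1 and 31.6 in WT and 18.9 and 37.0 in Anaef. In RPF both sums were highest in WT 1B and lowest in Anaef 3B, and the part of B and myeloid cells in the RPF values described below was not tested. Anaef is a point mutation, so gene counts do not check the genotype labels.

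Stretches of promoter are shown first, because the ER chaperones and the pair Hspd1 and Hspe1 recur in the results below. The sequences are from RefSeq on GRCm38.p6, read 5′ to 3′ on the strand of the gene, and 27 of the 35 genes had a promoter entry of 300 bases, 250 before the start of the transcript and 50 after. The 8 genes without one were Hspa8, Hspa9, St13, Hsp90aa1, Hsp90ab1, Pfdn1, Hsf1 and Cct4. Capitals mark the ER stress element, which is CCAAT and CCACG spaced by 9 bases of any kind, on either strand. It was found in 3 of the 27 genes and in 0.119% of 32851 promoter entries of the same length. A gene was counted if any of its entries matched, and some of the 27 had several entries. The share of genes is thus not on the same footing as the share of entries.
Hsp90b1: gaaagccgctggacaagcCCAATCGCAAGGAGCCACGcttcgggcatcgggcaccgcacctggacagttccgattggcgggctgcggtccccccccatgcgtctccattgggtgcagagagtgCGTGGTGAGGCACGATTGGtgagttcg
Dnajc3: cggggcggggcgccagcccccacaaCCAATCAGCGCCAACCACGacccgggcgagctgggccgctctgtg
Hspa5: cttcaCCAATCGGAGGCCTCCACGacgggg
The Hsp90b1 stretch is chr10:86705525-86705674 on the minus strand and holds the element at -212 to -194 and, on the other strand, at -107 to -89 from the start. The Dnajc3 stretch is chr14:118937802-118937871 on the plus strand, with the element at -105 to -87. Neither overlaps a GENCODE M21 exon of the genes described here, and exons of other genes were not searched. The Hspa5 stretch is chr2:34772020-34772049 on the plus strand, with the element at -65 to -47, and lies in an untranslated exon of a longer annotated Hspa5 transcript. Dnajb11, the other ER gene, had no match in its window.

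The heat shock element was searched as GAANNTTC or TTCNNGAA on both strands, with N for any base. It was found in 11 of the 27 genes and in 15.1% of all 32851 entries, counted as above. The three-unit form, in which GAA and TTC alternate through a further unit at the same spacing and which therefore contains the shorter form, was found in 4 of the 27 (Dnajb6, Hspd1, Hspe1 and Hsph1) and in 0.603% of all. Capitals mark the run of overlapping elements in the stretch between Hspe1 and Hspd1, which are transcribed away from each other, and the single element of Hspa1a, the stress-inducible Hsp70.
Hspe1: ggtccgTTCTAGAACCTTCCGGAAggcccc
Hspa1a: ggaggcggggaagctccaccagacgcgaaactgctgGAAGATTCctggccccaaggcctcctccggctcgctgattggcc
The Hspe1 stretch is chr1:55088053-55088082 on the plus strand, in an annotated untranslated exon of Hspd1, and Hspd1 reads the same bases on the minus strand. The Hspa1a stretch is chr17:34972217-34972296 on the minus strand. The copy Hspa1b has the same 80 bases at chr17:34959299-34959378, and 247 of the 250 bases before the start were identical between both genes. These matches describe the letters in the windows and are not evidence of binding.

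Levels were compared between genes per kilobase of the mRNA model. Hspa8, the constitutive cytosolic Hsp70, had the highest total RNA level at 509 CPM per kb over the 8 libraries, followed by the constitutive Hsp90, Hsp90ab1, at 443. Next came Hsp90b1, the ER Hsp90, at 113, the J-domain protein Dnaja1 at 91.9 and the CCT subunit Cct2 at 60.3. The lowest were Pfdn4 at 1.34 and the inducible pair Hspa1a and Hspa1b at 0.0413 and 0.0342. The 8 CCT subunits, which enter the ring in equal numbers, ranged from 15.2 CPM per kb for Cct3 to 60.3 for Cct2, and the 4 prefoldin subunits from 1.34 for Pfdn4 to 23.8 for Pfdn5. The inducible Hsp90, Hsp90aa1, stood at 29.5 CPM per kb. Hsf1 was at 39.2.

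**Figure D1:**
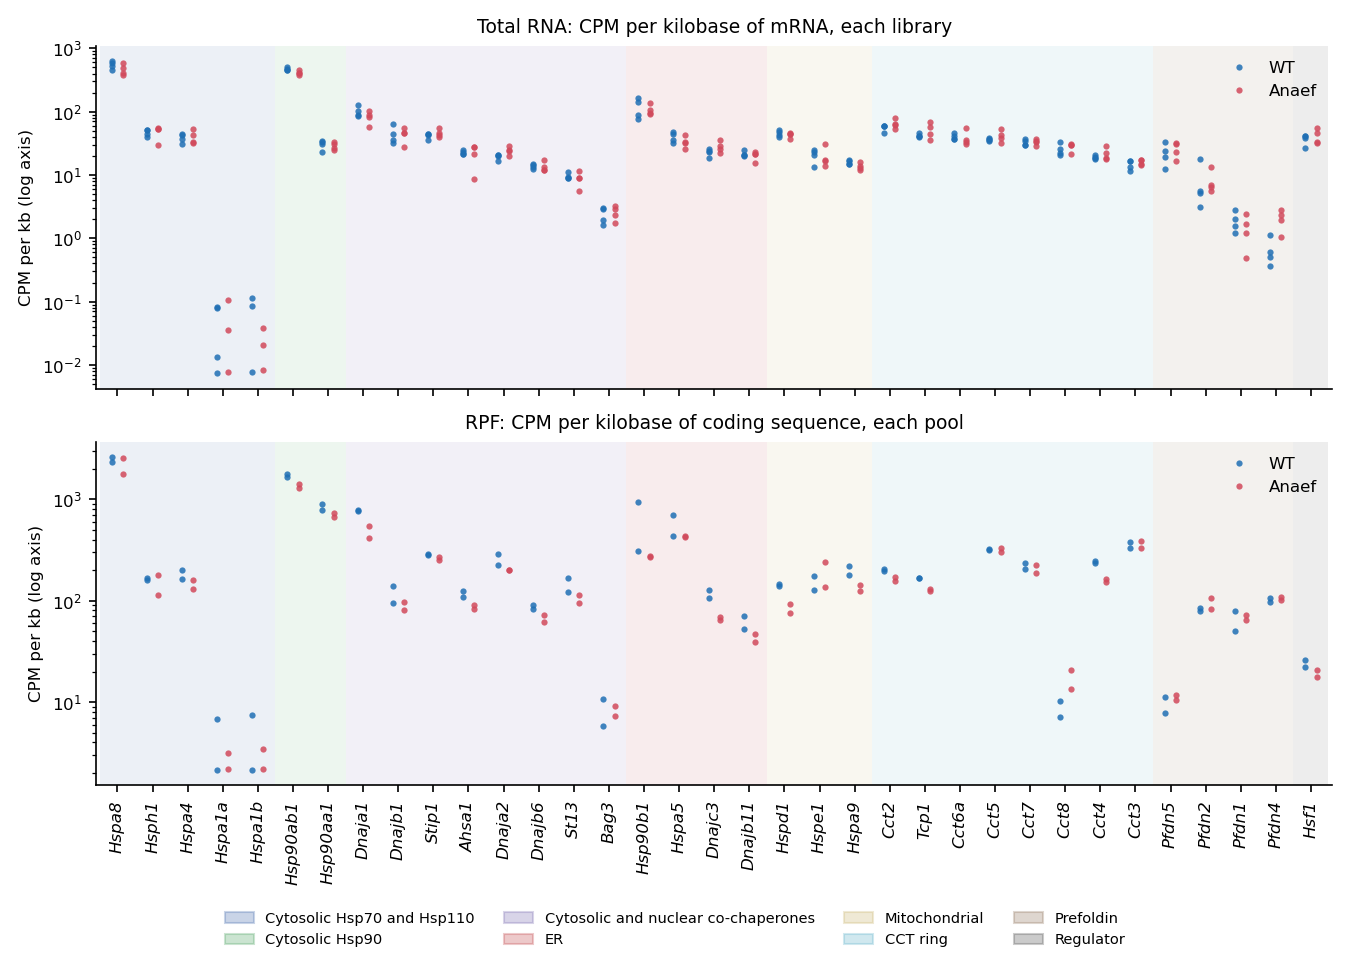
Levels of each member on a log axis, as CPM per kilobase of mRNA for each total RNA library (top) and CPM per kilobase of coding sequence for each RPF pool (bottom), with WT and Anaef points side by side and classes shaded; libraries at 0 are not drawn. Hspa8 and Hsp90ab1 are highest in both assays, and Hspa1a and Hspa1b lie below the other members in total RNA.

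The first comparison asked whether the mutant allele altered the level of these transcripts. No chaperone transcript passed the test in total RNA. By edgeR's quasi-likelihood test with Benjamini-Hochberg adjustment over 17876 genes, the source of all p-values below unless DESeq2 is named, 0 of 33 tested members had an adjusted p under 0.05, against 0.0224% of all genes. At an unadjusted p under 0.05 there were 0 lower and 1 higher, against 2.89% of all genes lower and 2.73% higher. DESeq2 called 0 members. Hspa1a and Hspa1b had too few counts to pass edgeR's filter and were not among the 33. The median log2 fold change of the 33 was 0.02 (-0.040 to 0.042 without single libraries), with 18 above 0, and that of all genes was 0.01.

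Among the cytosolic chaperones, Hspa8 had 1504, 1264, 1101 and 1409.7 CPM in WT 1 to 4 and 978, 917, 1399.9 and 1183 in Anaef 5 to 8. The groups overlapped, and the log2 fold change was -0.24 (SE 0.17, adjusted p = 0.94). Hsp90ab1 had 1296.5, 1156, 1154.5 and 1170.1 CPM in WT and 949, 1018, 1138 and 1042 in Anaef. Here every Anaef library lay below every WT library, but the log2 fold change of -0.20 (SE 0.12) did not pass (adjusted p = 0.917). Dnaja2, a J-domain partner of Hsp70, had 58.3, 61.2, 49.2 and 60.2 CPM in WT and 59.2, 72.4, 83.3 and 70.9 in Anaef. It overlapped through Anaef 5 and had the smallest p among the co-chaperones (log2 fold change 0.32, SE 0.15, adjusted p = 0.896). Dnaja1 had 577, 478, 493 and 711 CPM in WT and 325, 466, 577 and 507 in Anaef, with a log2 difference of -0.27 (SE 0.20, adjusted p = 0.942), which was -0.13 without Anaef 5.

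In the ER class Hsp90b1 had 407, 472, 217 and 249 CPM in WT and 255, 389, 297 and 266 in Anaef, so the groups overlapped widely (log2 fold change -0.16, SE 0.25, adjusted p = 0.985; without WT 2, 0.052). Dnajc3, a J-domain protein that also inhibits the eIF2α kinase PERK, had 119.7, 133, 94.1 and 122 CPM in WT and 116, 183, 131 and 146 in Anaef (log2 fold change 0.30, SE 0.17, adjusted p = 0.917; without Anaef 6, 0.16). Of the mitochondrial genes, Hspd1, the chaperonin Hsp60, had 104, 96.3, 114 and 124 CPM in WT and 89.6, 108, 113 and 106 in Anaef, a log2 difference of -0.07 (SE 0.14, adjusted p = 0.987; without Anaef 5, -0.0071). Hspa9, the mitochondrial Hsp70 that pulls imported chains inward, had 45.3, 51.1, 45.2 and 53.0 CPM in WT and 36.8, 42.6, 48.3 and 39.7 in Anaef (log2 fold change -0.22, SE 0.15, adjusted p = 0.94). Both overlapped between genotypes.

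Of the 8 CCT subunits, 7 had a log2 fold change above 0, with a median of 0.16 (0.085 without Anaef 8), and none passed. Tcp1, the alpha subunit, had 113, 101, 101 and 97.2 CPM in WT and 107, 169, 88.6 and 139 in Anaef, with Anaef 6 and 8 above the WT range and Anaef 7 below it (log2 fold change 0.29, SE 0.20, adjusted p = 0.935; without Anaef 6, 0.12). Cct2 had 118, 118, 89.5 and 115 CPM in WT and 103, 121, 127 and 153 in Anaef (0.19, SE 0.16, adjusted p = 0.95; without Anaef 8, 0.090). Among the prefoldin subunits, Pfdn5 had 13.3, 25.5, 35.4 and 20.7 CPM in WT and 33.7, 17.4, 24.3 and 32.2 in Anaef. It varied within each genotype by more than between them (0.19, SE 0.31, adjusted p = 0.985; without WT 1, -0.014).

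Pfdn4 was the member at an unadjusted p under 0.05 in total RNA. It had 0.346, 1.04, 0.475 and 0.561 CPM in WT and 1.85, 2.17, 0.985 and 2.59 in Anaef, and WT 2 lay above Anaef 7. The log2 fold change was 1.62 (SE 0.55, adjusted p = 0.816), on 6 to 91 reads per library. Hsf1 had 85.8, 87.7, 57.0 and 81.9 CPM in WT and 95.5, 66.5, 116 and 69.4 in Anaef, with a log2 difference of 0.15 (SE 0.22, adjusted p = 0.985) whose sign turned without Anaef 7 (-0.020).

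The second comparison asked the same of ribosome-protected fragments. Most chaperones had lower RPF values in Anaef, though none passed the test: 26 of 34 tested members had a log2 fold change below 0, with a median of -0.33, while the median of all 9710 genes tested was 0.01. Values were lowest in the ER and mitochondrial classes, with medians of -0.67 and -0.57. The medians were -0.38 for the co-chaperones, -0.33 for Hsp70 and Hsp110, -0.30 for Hsp90 and -0.10 for the CCT ring, and 0.13 for prefoldin, where all 4 subunits lay above 0. Single pools moved some of these medians. Hsp70 and Hsp110 stood at -0.097 without WT 2B and -0.18 without Anaef 3B. The CCT ring stood at 0.034 without Anaef 3B and -0.26 without Anaef 4B. Prefoldin stood at 0.34 without WT 1B and 0.0013 without Anaef 4B. The Hsp70 class includes the near-identical pair Hspa1a (-0.68, SE 0.61) and Hspa1b (-0.69, SE 0.64), on 12 to 59 reads per pool. Reads of the pair cannot be told apart with certainty, and both count among the 26. Without WT 2B the pair stood at 0.31 and 0.39. The other genes of that class, Hspa8, Hspa4 and Hsph1, stood at -0.18, -0.33 and -0.15 with all pools. By edgeR 0 of 34 members had an adjusted p under 0.05, as for all genes (0%), and the smallest was 0.344.

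At an unadjusted p under 0.05, 9 members (26.5%) were lower, against 6.93% of all genes, and 1 was higher, against 4.92%. Because the set was chosen with earlier results known, these shares are not an independent test. The 9 were Hsp90b1, Dnajc3 and Dnajb11 of the ER, Hspd1 and Hspa9 of the mitochondrion, Dnaja1 and Ahsa1 of the co-chaperones, and Cct4 and Tcp1 of the CCT ring. Cct8 was the higher member. Both Anaef pools lay below both WT pools for 18 of 34 members, against 22.5% of all genes. The count of lower members was 15 with no filter on low counts. It was smaller without Anaef 3B or 4B and larger without WT 1B or 2B. The share of all genes at this threshold was not determined in these settings. The median of the members lay between -0.374 (without Anaef 4B) and -0.245 (without WT 1B) when single pools were left out. DESeq2 called 4 members, Dnajc3, Hspd1, Cct4 and Dnaja1, all lower, against 0.747% of the 7362 genes it gave an adjusted p. By edgeR with no filter those and Hsp90b1, Hspa9 and Cct8 were called, Cct8 as higher and the others as lower, against 3.49% of 14724 genes. Hsp90b1 was high in WT 1B alone, and its log2 fold change was -0.18 without that pool. With 2 pools per genotype, and no statement in the labels of which mice entered which pool, the tests measure only the spread between these pools.

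**Figure D2:**
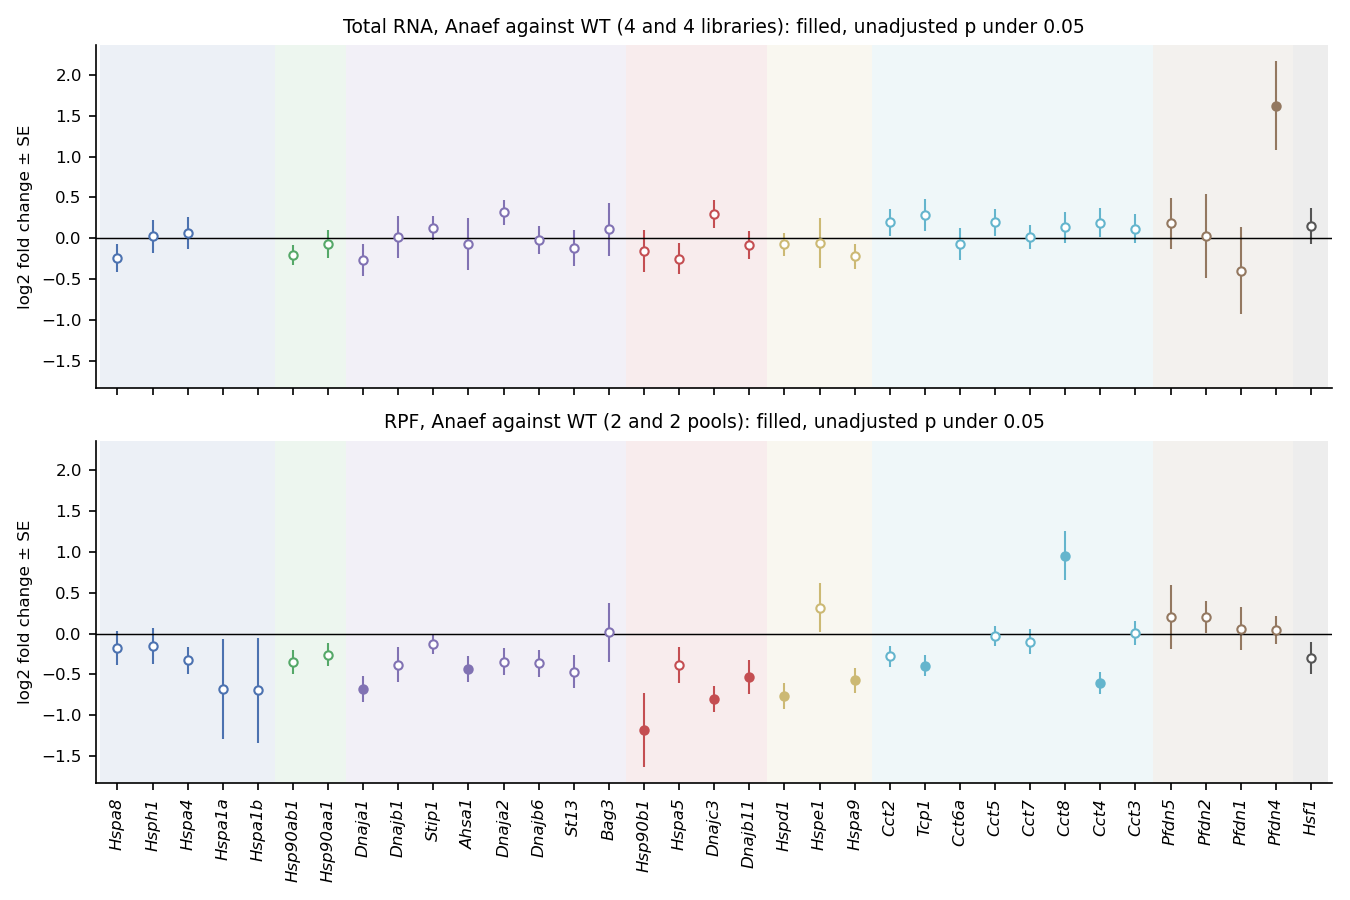
Log2 fold change of Anaef against WT with its standard error for each member in total RNA (top) and RPF (bottom), shaded by class as in the plot of levels; filled points have an unadjusted p under 0.05. Total RNA values scatter about 0, with Pfdn4 at 1.62, while 26 of 34 RPF values lie below 0, led by Hsp90b1 at -1.19.

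Among the cytosolic Hsp70 genes, Hspa8 had 4483 RPF CPM in WT 1B, 5005.5 in WT 2B, 3459 in Anaef 3B and 4937 in Anaef 4B. Only Anaef 3B lay below the WT pools (log2 fold change -0.18, SE 0.21, adjusted p = 0.772), and without it the value was 0.057. Hspa4, an Hsp110 protein that releases nucleotide from Hsp70, had 505 and 417 CPM in WT and 330.04 and 406 in Anaef, without overlap (-0.33, SE 0.17, adjusted p = 0.479; -0.19 without WT 1B and -0.18 without Anaef 3B). Both Hsp90 genes were separated between genotypes as well, with Anaef below WT as in 22.5% of all genes. Hsp90ab1 had 3887 and 3578 CPM in WT and 2775 and 3102 in Anaef (-0.34, SE 0.15, adjusted p = 0.427), and Hsp90aa1 had 1960.2 and 1719.5 in WT and 1472 and 1601.5 in Anaef (-0.26, SE 0.14, adjusted p = 0.509).

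Dnaja1 had the lowest fold change of the co-chaperones. It had 905 and 929 RPF CPM in WT and 496 and 649 in Anaef, a log2 difference of -0.68 (SE 0.16, adjusted p = 0.344). Ahsa1, the activator of the Hsp90 ATPase, had 110.4 and 128 CPM in WT and 84.3 and 91.8 in Anaef (-0.44, SE 0.16, adjusted p = 0.383). For 6 of the 8 co-chaperones both Anaef pools lay below both WT pools, as they did for 22.5% of all genes. Bag3, a nucleotide exchange factor that serves autophagy, was the co-chaperone above 0, at 0.02, with -0.41 without WT 1B and 0.50 without WT 2B. Hsf1 had 35.1 and 41.0 CPM in WT and 33.3 and 28.3 in Anaef (-0.30, SE 0.19, adjusted p = 0.57; without WT 2B, -0.19).

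In the ER, Hsp90b1 (Grp94) had 2258 RPF CPM in WT 1B, 740.3 in WT 2B, 656 in Anaef 3B and 663 in Anaef 4B. WT 1B stood apart from the other pools. The log2 fold change was -1.19 (SE 0.45, adjusted p = 0.398) and -0.18 without WT 1B. Hspa5, the ER Hsp70 BiP, had 1369.5 CPM in WT 1B and 848, 862 and 835 in WT 2B, Anaef 3B and 4B, a log2 difference of -0.39 (SE 0.22, adjusted p = 0.532) and -0.01 without WT 1B (-0.69 without WT 2B). Its J-domain partner Dnajb11 had 75.4 and 57.1 CPM in WT and 42.2 and 49.9 in Anaef (-0.53, SE 0.21, adjusted p = 0.402; without WT 1B, -0.32).

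In Dnajc3, unlike Hsp90b1 and Hspa5, both WT pools were high. It had 192 and 162 CPM in WT and 105 and 98.0 in Anaef, and the log2 fold change of -0.80 (SE 0.16, adjusted p = 0.344) was -0.69 without WT 1B. The ER median was -0.67 with all pools and -0.25 without WT 1B. WT 1B was also the pool with the most immunoglobulin: these genes took 8.09% of its counts, 3.17% in WT 2B, 2.54% in Anaef 3B and 0.79% in Anaef 4B. The Dnajc3 values fell in the same order of pools. All 10 plasma cell markers were detected in RPF, among them Jchain, which joins secreted antibody, at 1498, 787, 469 and 147 CPM in the same order. Plasma cells are rich in ER chaperones, and the part of these cells in the ER values was not tested. In bulk samples fewer cells of a type and less RNA per cell cannot be told apart. Without the ER class, 22 of 30 members were below 0, with a median of -0.29.

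**Figure D3:**
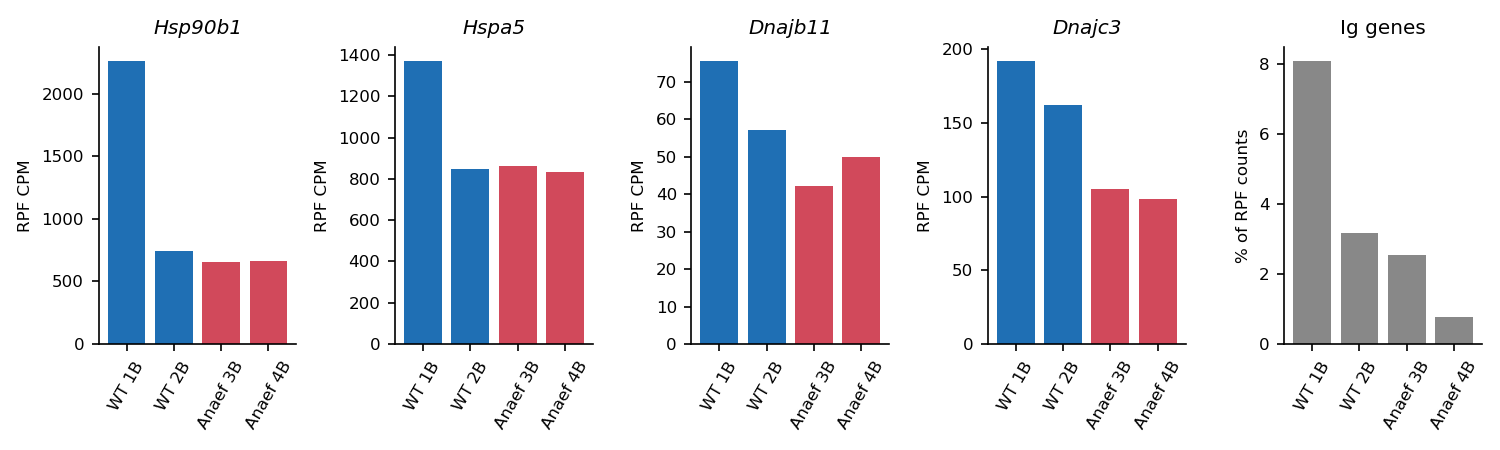
RPF CPM of the 4 ER members in each pool, with the share of RPF counts from immunoglobulin genes in the last panel; bars start at 0 and each is 1 pool. Hsp90b1 and Hspa5 are high in WT 1B alone, and Dnajc3 is high in both WT pools. The immunoglobulin share is highest in WT 1B and, like Dnajc3, higher in both WT pools than in both Anaef pools.

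Of the mitochondrial genes, Hspd1 had 249 and 238 RPF CPM in WT and 129 and 158 in Anaef, so the pools of each genotype lay close together and apart from the other genotype. The log2 fold change was -0.76 (SE 0.16, adjusted p = 0.344) and stayed between -0.63 and -0.92 when any pool was left out. Hspa9 had 443 and 367 CPM in WT and 256 and 289 in Anaef (-0.57, SE 0.15, adjusted p = 0.344). Hspe1, the Hsp10 lid of the Hsp60 chamber, is transcribed from the stretch printed above that it shares with Hspd1. It had 53.0 and 39.3 CPM in WT and 42.2 and 73.6 in Anaef, overlapping, with a log2 difference of 0.32 (SE 0.30, adjusted p = 0.708). Its sign turned without Anaef 4B (-0.14), and the value was 0.12 without WT 2B and 0.67 without Anaef 3B.

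Subunits of the CCT ring did not share a direction in RPF. Cct4, the delta subunit, had 396 and 381 CPM in WT and 265 and 246 in Anaef (-0.60, SE 0.13, adjusted p = 0.344). Tcp1 had 279.6 and 277 CPM in WT and 215 and 209 in Anaef (-0.39, SE 0.13, adjusted p = 0.363). In both, the pools of a genotype differed by less than the genotypes did. Cct2 had 329 and 315 CPM in WT and 253 and 277 in Anaef (-0.28, SE 0.13, adjusted p = 0.455), while Cct3, Cct5 and Cct7 had log2 fold changes of 0.01, -0.03 and -0.10, whose sign turned without Anaef 4B for Cct3 (-0.12) and without Anaef 3B for Cct5 (0.034) and Cct7 (0.036). Cct8, the theta subunit, had 16.8 and 11.7 CPM in WT and 22.4 and 33.8 in Anaef, a log2 difference of 0.95 (SE 0.30, adjusted p = 0.347; without Anaef 4B, 0.63) on 48 to 114 reads per pool.

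Prefoldin subunits were close to 0 in RPF. Pfdn2 had 39.4 and 36.4 CPM in WT and 38.4 and 49.2 in Anaef (0.20, SE 0.20, adjusted p = 0.716; without Anaef 4B, 0.011). Pfdn4 had 39.1 and 42.5 CPM in WT and 40.7 and 43.6 in Anaef (0.05, SE 0.17, adjusted p = 0.945; without WT 1B, -0.023), against a total RNA value of 1.62. The prefoldin range was 0.05 to 0.21. Pfdn1 stood at -0.22 without WT 2B and 0.43 without WT 1B. Pfdn5, on 14 to 35 reads per pool, stood at 0.0016 without WT 2B and 0.49 without WT 1B.

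The third comparison asked whether ribosome occupancy relative to transcript level differed between genotypes, by an interaction term fitted on all 12 libraries. Of 34 members, 27 had a lower ratio of RPF to total RNA in Anaef, with a median log2 difference of -0.36, against 0.01 for all 19031 genes tested. By edgeR 0 members passed after adjustment, as for all genes (0%), and DESeq2 called 0. At an unadjusted p under 0.05, 6 were lower (17.6%), against 1.76% of all genes and 2.48% of genes with a coding sequence. At the same threshold 0 were higher, against 1.59% and 2.24%. Without the ER class 23 of 30 were lower, with a median of -0.31. Fewer members were lower at the unadjusted threshold without Anaef 3B, Anaef 4B or WT 1B, and the share of all genes was not determined there. The median of the members was -0.269, -0.372 and -0.260 in these settings. The interaction fit shares its libraries with both comparisons above.

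The 6 were Dnajc3, Hspd1, Cct4, Dnaja2, Pfdn4 and Tcp1, all with an adjusted p of 1. The ratios that follow divide CPM scaled separately in each assay, so their size does not show an excess of RPF over total RNA. On the joint scale of the libraries of a genotype, the log2 ratio was -0.12 (SE 0.18) for Dnajc3 in WT. For Hspd1 in Anaef it was -0.29 (SE 0.19). Dnajc3 had a mean RPF CPM 1.51 times its mean total RNA CPM in WT and 0.705 times in Anaef. Its log2 difference in the interaction was -1.11 (SE 0.29). For Hspd1 the same ratios were 2.22 and 1.38 (-0.70, SE 0.23), and for Cct4 they were 8.20 and 4.73 (-0.81, SE 0.28). In these genes the total RNA levels of the genotypes overlapped and the RPF levels did not. Dnaja2 had ratios of 5.51 and 3.49 (-0.67, SE 0.25) and Tcp1 of 2.70 and 1.68 (-0.70, SE 0.32). Pfdn4 had ratios of 67.3 and 22.2 (-1.57, SE 0.62), but its RPF hardly differed between genotypes (0.05). Its total RNA, on which the difference rests, had 6 to 91 reads per library. In the classes without a member among the 6, the smallest p belonged to Hspa4 (-0.40, SE 0.32), Hsp90ab1 (-0.15, SE 0.18) and Hsf1 (-0.47, SE 0.36). Hspa4 reached -0.25 without Anaef 6, Hsp90ab1 -0.092 without Anaef 3B and Hsf1 -0.30 without Anaef 7.

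The last comparisons set RPF against total RNA within each genotype. Chaperone transcripts carried many RPF for their total RNA: in WT, 25 of 34 members (73.5%) were higher in RPF after adjustment, against 19.6% of all genes, and 4 were lower, against 54.4%. In Anaef 17 were higher, against 16.4% of all genes, and 6 lower, against 50.8%. The median log2 ratio of the members was 1.03 in WT and 0.85 in Anaef, while that of all genes was -1.62 and -1.79 and that of genes with a coding sequence -0.29 and -0.41. All genes include transcripts that ribosomes do not translate, so the coding genes are the closer background, of which 27.3% were higher and 38.1% lower in WT, and 22.9% and 35.1% in Anaef. These log2 ratios are on the joint scale of the 6 libraries of a genotype, and the assays differ in kit, fragment length and region covered.

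In the Hsp70 class the pair Hspa1a and Hspa1b stood out. Their log2 ratios were 5.33 (SE 0.92) and 5.14 (SE 1.01) in WT and 4.71 (SE 1.22) and 6.07 (SE 1.02) in Anaef. The RPF levels were low: Hspa1a had 4.13 and 13.1 CPM in WT and 6.02 and 4.19 in Anaef. Total RNA held 28 Hspa1a and 23 Hspa1b reads over 8 libraries, against 115 and 122 in the 4 shallower RPF pools. The counts of both genes were equal in 7 of 12 libraries, and as near-identical copies they cannot be told apart with certainty. The lowest ratios of the class were 0.53 for Hsph1, the Hsp110 protein, in WT (SE 0.16, adjusted p = 0.018) and 0.22 for Hspa4 in Anaef (SE 0.25, adjusted p = 0.448).

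The cytosolic Hsp90 genes differed between assays. Hsp90aa1 had 74.5 to 114 total RNA CPM and 1472 to 1960.2 RPF CPM, log2 ratios of 3.50 (SE 0.19, adjusted p = 6.21e-06) in WT and 3.27 (SE 0.18, adjusted p = 4.85e-06) in Anaef. Hsp90ab1, with 949 to 1296.5 total RNA CPM, had ratios of 0.93 (SE 0.13) and 0.75 (SE 0.16). Per kilobase, Hsp90aa1 lay at 30.2 against 474 for Hsp90ab1 in WT total RNA, and at 837 against 1718 in WT RPF. The inducible gene was thus much nearer to the constitutive gene in RPF than in total RNA.

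Among the co-chaperones Dnaja2 had the highest ratio in WT (1.75, SE 0.17) and Stip1, which links Hsp70 to Hsp90, in Anaef (1.39, SE 0.18). Dnajb1, the stress-inducible J-domain protein, had the lowest in both, -0.85 (SE 0.31, adjusted p = 0.0379) and -1.29 (SE 0.29, adjusted p = 0.0051). In the ER class Hspa5 was highest in both genotypes, at 2.20 (SE 0.23) and 2.03 (SE 0.21), while Dnajb11 was lowest in WT at -0.41 (SE 0.20, adjusted p = 0.0913) and Dnajc3 in Anaef at -1.25 (SE 0.23, adjusted p = 0.00173). Hspa9, the mitochondrial Hsp70, stood highest of its class at 2.34 (SE 0.16) in WT and 1.95 (SE 0.18) in Anaef. Hspd1 was the lowest mitochondrial gene, at 0.43 (SE 0.16, adjusted p = 0.0394) and -0.29 (SE 0.19, adjusted p = 0.196). The WT calls of Dnajb1, Hspd1 and Hsph1 were lost without WT 1B (adjusted p of 0.237, 0.163 and 0.0982) and without WT 2B (0.0586, 0.115 and 0.0613), those of Dnajb1 and Hspd1 also without WT 2 (0.0612 and 0.106), that of Dnajb1 without WT 4 (0.0549) and that of Hspd1 without WT 1 (0.0865). The Anaef call of Dnajb1 was lost without Anaef 3B (0.0617).

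**Figure D4:**
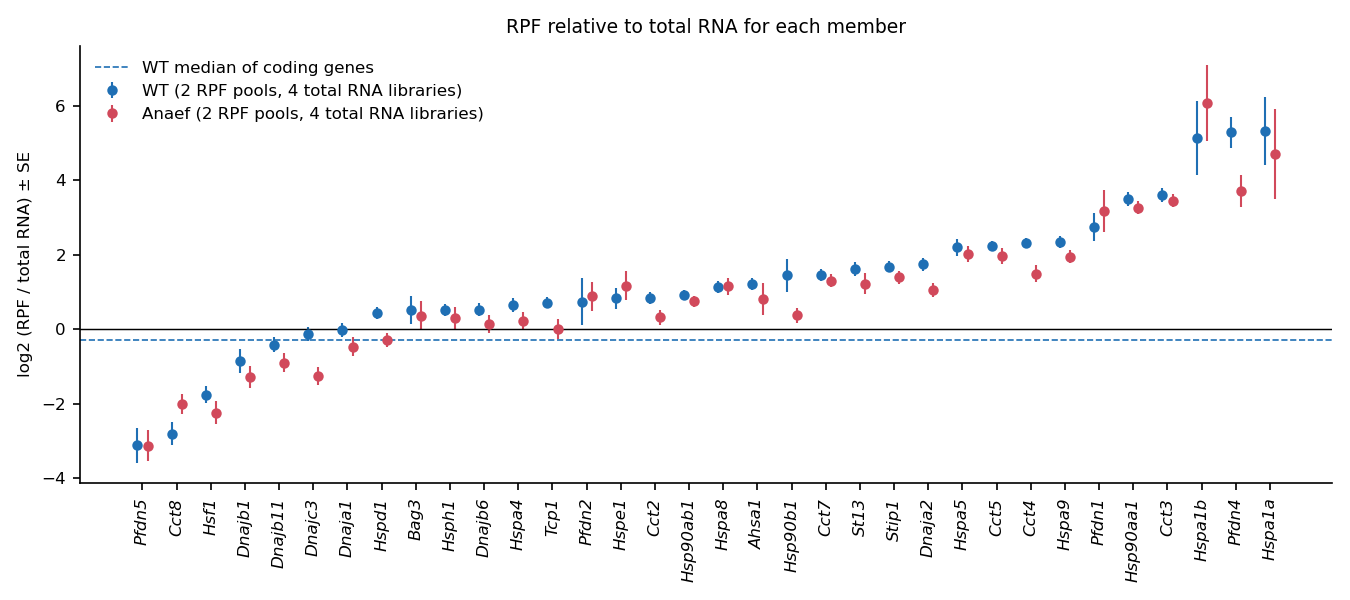
Log2 ratio of RPF to total RNA with its standard error for each member in WT and Anaef, ordered by the WT value; the dashed line is the WT median of coding genes, -0.29. Pfdn5 and Cct8 lie lowest in WT, and Hspa1a, Pfdn4 and Hspa1b highest.

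Subunits of the same complex had very different ratios. In the CCT ring Cct3, the gamma subunit, had 23.2 to 33.9 total RNA CPM and 535 to 628 RPF CPM, with log2 ratios of 3.61 (SE 0.19, adjusted p = 5.61e-06) in WT and 3.46 (SE 0.17, adjusted p = 3.99e-06) in Anaef. Cct8 had 49.1 to 79.5 total RNA CPM and 11.7 to 33.8 RPF CPM, with ratios of -2.80 (SE 0.31, adjusted p = 0.00011) and -2.01 (SE 0.28, adjusted p = 0.000375). Per kilobase of coding sequence the WT RPF level was 354 for Cct3 and 8.66 for Cct8, and it lay between 167 and 320.2 for Tcp1, Cct2, Cct4, Cct5 and Cct7. Cct8 was thus apart from the ring in RPF but not in total RNA, where it lay inside the range of the other subunits. The sources do not state which sequences were masked in RPF or which gene models were counted, and whether that bears on the low RPF counts of Cct8, or of Pfdn5 below, was not tested.

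Prefoldin showed the same spread. Pfdn4 had 0.346 to 2.59 total RNA CPM, on 6 to 91 reads per library, and 39.1 to 43.6 RPF CPM. Its log2 ratios were 5.30 (SE 0.42) in WT and 3.72 (SE 0.42) in Anaef. Pfdn5 had 13.3 to 35.4 total RNA CPM and 3.64 to 5.45 RPF CPM, with ratios of -3.12 (SE 0.48) and -3.13 (SE 0.42). Per kilobase, Pfdn5 was the highest prefoldin subunit in total RNA and the lowest in WT RPF, at 9.53 CPM per kb of coding sequence against 64.2, 82.1 and 101.5 for Pfdn1, Pfdn2 and Pfdn4. Hsf1 was lower in RPF in both genotypes, at -1.75 (SE 0.23, adjusted p = 0.000297) and -2.25 (SE 0.31, adjusted p = 0.000351).

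Cct6a, the zeta subunit of CCT, was listed at 0 in all 4 RPF pools, where a count of 0 allows up to 0.428 to 1.05 CPM of the unscaled totals, although it had 74.9 to 134 CPM in total RNA. It was left out of all comparisons with RPF. Its model in GENCODE M21 has no coding sequence. Of 3519 genes without a coding sequence and with a mean of at least 50 total RNA counts, 99 (2.81%) had any RPF count, against 9938 of 10334 (96.2%) with one. The 11 pseudogenes named for members likewise had 0 RPF counts, while Hspd1-ps3 had 12726 total RNA reads, 48.3% of those of Hspd1, and reads shared with such copies make the total RNA of Hspd1 uncertain.

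The wider chaperone network was described by a list of 75 further genes, also chosen with earlier results of these data known. In total RNA 69 were tested, and at an unadjusted p under 0.05 there were 2 higher and 3 lower (2.73% and 2.89% of all genes). Those with the smallest p were Sil1, the exchange factor of BiP (log2 fold change -1.56, SE 0.60), and Hspa13, a microsomal Hsp70 (-0.96, SE 0.40). They were followed by Grpel1, the exchange factor of Hspa9 (0.805, SE 0.35), and Pdcl, a phosducin-like partner of CCT (0.70, SE 0.30). All had low levels, from 0.42 to 16.1 CPM. Sil1 had 8.94 CPM in WT 3, against 2.31 to 3.08 in the other WT libraries. Grpel1 had 16.1 CPM in Anaef 8, against 6.12 to 9.81 in the other Anaef libraries. In RPF 47 of 66 lay below 0, with a median of -0.18, and at an unadjusted p under 0.05 there were 10 lower (15.2%) and 3 higher, against 6.93% and 4.92% of all genes. The ER genes gave 5 of the 10, with 13 of 18 below 0 and a median of -0.36, and the immunoglobulin shares given above for the pools apply to them too. By edgeR 0 of the 69, 66 and 71 genes tested in total RNA, RPF and the interaction passed after adjustment. DESeq2 gave an adjusted p to 70, 57 and 46 of them in the same order, and 0 passed.

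In RPF the smallest p among these 75 belonged to genes of several compartments. Sil1 had 27.5 and 31.1 CPM in WT and 16.6 and 19.5 in Anaef (-0.69, SE 0.21, adjusted p = 0.344). Dnajc2, a J-domain protein of the ribosome-associated complex, had 67.8 and 50.3 in WT and 31.8 and 39.4 in Anaef (-0.73, SE 0.22, adjusted p = 0.344). Higher in Anaef were Pdrg1, a prefoldin-like protein, with 5.02 and 4.37 CPM in WT and 8.60 and 13.3 in Anaef (1.19, SE 0.37, adjusted p = 0.344), and Bag6, which guards hydrophobic chains in the cytosol, with 289 and 334 in WT and 401 and 434 in Anaef (0.42, SE 0.14, adjusted p = 0.363). In the interaction the smallest p belonged to Dnajc1, an ER J-domain protein (0.89, SE 0.31), Cct6b, at or near 0 counts in every library and not interpreted, Bag6 (0.63, SE 0.30) and Pdia4, an ER disulfide isomerase (-0.69, SE 0.33). Within genotypes 37 of 70 were higher in RPF than in total RNA in WT and 17 lower, against 27.3% and 38.1% of coding genes and 19.6% and 54.4% of all genes. In Anaef 27 of 69 were higher and 18 lower, against 22.9% and 35.1% of coding genes and 16.4% and 50.8% of all genes.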

How the data were processed

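The authors deposited raw read counts per gene, not normalized, on the build GRCm38. TopHat 1.4.1 and Bowtie 0.2.17 are listed in the submitters' processing notes. Which counter, strand setting and gene annotation were used, and which sequences were masked in RPF, are details not given in the sources used here. Total RNA came from polyadenylated RNA of a small part of the cells and RPF from the remaining cells, pooled in pairs, treated with cycloheximide and digested with micrococcal nuclease, per the labels' protocols. Nothing in the labels ties pools to animals, so no pairing was used. The fits that join both assays treated their libraries as independent, although by these protocols the assays drew on the same cell samples. Their p-values and standard errors leave any such dependence out.

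The tests were those of edgeR 4.0.16, run in R 4.3.3 (TMM, filterByExpr, quasi-likelihood F test, Benjamini-Hochberg over all genes tested, threshold 0.05). Total RNA, RPF, their interaction and RPF over total RNA within a genotype were fitted separately. The standard error is the size of the log2 change divided by the root of F. Lengths and annotation were from GENCODE M21, with the transcript of longest coding sequence. Alternatives were RLE size factors, DESeq2 1.42.0, other filters on low counts, a fit on 12 libraries, removal of mitochondrial, Ig and TCR genes, leaving out each library and, chosen after seeing the data, coding genes alone. Rows joining several genes (263) were not used for members. Limits for a count of 0 are 3 counts and cover counting error only.

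Members, classes and lists were chosen with earlier results of these data known. Within a class, full values are given for the member with the highest total RNA level per kilobase and for the member with the smallest p in each genotype comparison, and the highest and lowest ratios of RPF to total RNA are named. Of the other chaperone genes, the 4 with the smallest p are named in each genotype comparison. Hspa5, Dnajb11, Ahsa1, Hspe1, Cct8 and others outside this rule were named after their values were seen.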

Additional observations from a re-analysis of the deposited data

Results flagged for a closer look

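In total RNA, 5 of 66 groups of 4 libraries held a library far from the others by Dixon's test at 95%, where chance marks about 1 group in 20. Hsph1 had 112 CPM in Anaef 5, against 199.9 to 212 in the other Anaef libraries. Cct8 was also low in Anaef 5, at 51.4 CPM against 70.4 to 73.5. Cct2 had 89.5 CPM in WT 3, against 115 to 118 in the other WT libraries, and Pfdn2 had 31.2 in WT 3, against 5.44 to 9.77. Hsp90ab1 had 1296.5 CPM in WT 1, against 1154.5 to 1170.1. WT 3 and Anaef 5 were the shallowest total RNA libraries, with 15326842 and 18580747 counts.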

How the results depend on the processing

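In RPF between genotypes, the members called numbered 0 with edgeR and the usual filter, 4 with DESeq2 (7362 genes with an adjusted p) and 7 with no filter on low counts (14724 genes), and 0 under the other alternatives run. Over all genes, RPF calls were 0 as reported, 8 higher and 47 lower with DESeq2, 127 and 387 with no filter, 2 and 4 without mitochondrial, Ig and TCR genes, 16 and 195 without Anaef 3B, and 14 and 0 without Anaef 4B. The total RNA calls were 4, all lower, as reported, 43 higher and 125 lower with DESeq2, and 0 to 3 without single libraries or without mitochondrial, Ig and TCR genes. DESeq2 called 4 higher and 6 lower genes in the interaction. The cause of these differences was not tested. The total RNA value of Hsf1 lay between -0.020 (without Anaef 7) and 0.26 (without Anaef 6) when single libraries were left out. In WT, Dnajb1, Hspd1 and Hsph1 lost their calls of RPF over total RNA in 5, 5 and 3 settings, and Dnajb1 lost it in Anaef without Anaef 3B. RLE size factors moved the Anaef median of all genes from -1.79 to -1.67. Settings that change which genes are tested moved it further, to between -2.80 (without Anaef 3B) and -0.39 (coding genes alone). No paired analysis was possible because the groups share no replicate numbers. Low counts left Hspa1a and Hspa1b untested in total RNA under edgeR's usual filter.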
